A study of Drosophila melanogaster with 24 samples.

Results

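The mitochondrial fatty acid oxidation genes described here are 7 of the 13234 genes in the authors' deposited table of fat body messenger RNA from adult Drosophila melanogaster females. They were taken by name from a list of 8 names, and 2 of those names, Mtpbeta and Thiolase, are the same gene in RefSeq, which the table carries as Thiolase. All 7 had an adjusted p-value, so none was lost to a filter on low values.

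Fatty acids released from fat body stores are joined to coenzyme A and, when long, carried into mitochondria as carnitine esters. Inside, repeated rounds of dehydrogenation, hydration, a second dehydrogenation and thiolytic cleavage shorten the chain and release acetyl-CoA, while electrons leave through the electron transfer flavoprotein. In insects the fat body is both the main lipid store and a site where stored lipid is mobilised, and the carnitine palmitoyltransferase of the outer membrane is the classical control point of entry.

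The flies were w1118, a laboratory strain with a mutation in the white eye-colour gene, and all were virgin females reared at 25 °C. There were 4 groups of 6 libraries, and the listed age of the flies was 25 days in every group. The groups were 11 °C with S-methoprene, 11 °C with ethanol alone, 25 °C with S-methoprene and 25 °C with ethanol alone. S-methoprene is an analogue of juvenile hormone, and flies received 10 µL of it in 99% ethanol, or of ethanol alone, as vapour every 2 days. Each library pooled fat body of 25 flies, and flies were used only where the ovary looked right for its condition, which was large in every group but the one at 11 °C with ethanol alone, where it was regressed. The design of 4 groups serves to find which transcripts differ in adult diapause, the reproductive arrest of the cold, and which follow the hormone.

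The deposited table holds 1 comparison with a mean normalised read count per gene, a log2 fold change, its standard error (SE), and a p-value with its adjusted form. It holds no value per library, so levels in each group, the depth of each library and the spread between replicates are unknown. The labels number the libraries as replicates and do not say that they came from separate cultures, so the p-values measure the spread between these libraries. The table names neither the factor compared nor the direction of the fold change. Genes are therefore given as higher on the positive or on the negative side of it, with no temperature or treatment assigned to a side. In what follows a gene is called where the authors' deposited table gives it an adjusted p under 0.05.

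Of the 7 members, 3 were called, each of them higher on the positive side, and 0 had a negative call. The called ones were whd, the outer-membrane carnitine palmitoyltransferase, and the acyl-CoA dehydrogenase genes Arc42 and Mcad. CPT2, both subunits of the trifunctional protein (Mtpalpha and Thiolase) and the thiolase gene yip2 did not pass the test. The authors' deposited table gives an adjusted p for 11399 genes, of which 49.0% were called, 27.0% positive and 22.0% negative, so 3 of 7 is close to the share of genes in general. With a mean of 500 to 5000, a range that takes in every member except Mcad, 2 of the 6 members were called, against 61.4% of the 1485 genes of that range in the authors' deposited table. The median log2 fold change was 0.19 over the 7 members and 0.07 over all genes with an adjusted p-value. These are counts and medians of genes measured in the same libraries, and nothing particular to the members was tested from them. In bulk RNA, fewer cells of a type and less RNA per cell cannot be told apart.

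**Figure D1:**
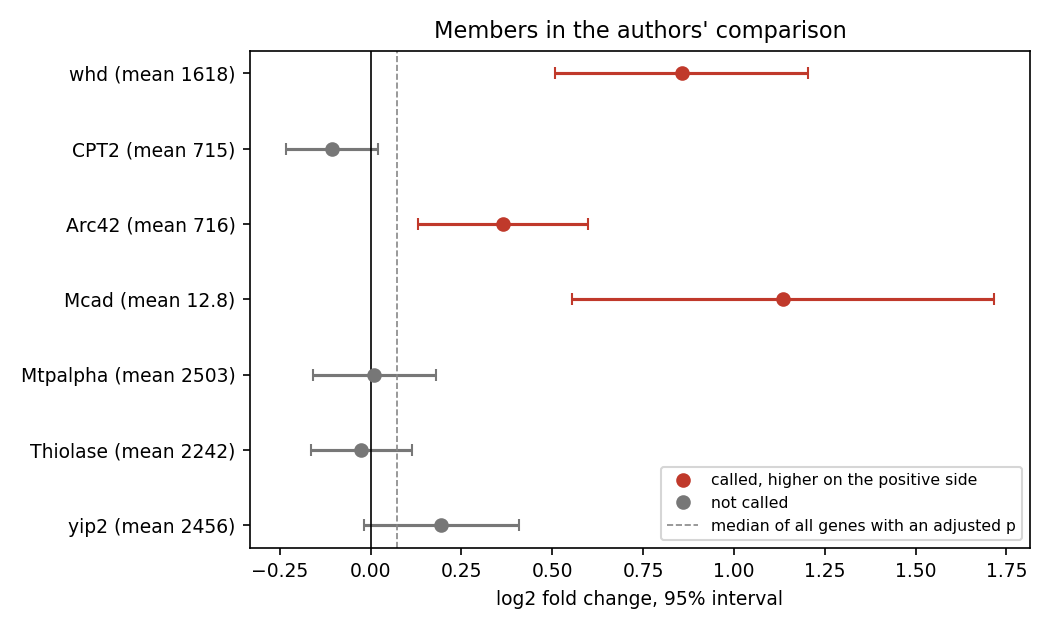
Log2 fold change of each member in the authors' deposited table (horizontal axis), with bars for the 95% interval, ordered from carnitine transfer at the top to thiolysis at the bottom. The intervals of whd, Arc42 and Mcad lie above 0, those of the other 4 members include 0, and the dashed line marks the median of all genes with an adjusted p, 0.07.

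Carnitine transfer has an outer and an inner enzyme, and these had different values. The gene whd (withered, FBgn0261862), the fly CPT1, lies on 2R from 10469473 to 10478567 on the minus strand (release 6 annotation, dm6 coordinates) and has 4 annotated transcripts. In the authors' deposited table whd had a mean of 1618 normalised counts and a log2 fold change of 0.86 (adjusted p = 8.52e-06, SE 0.18). That is 1.81-fold higher on the positive side, with a 95% interval of 1.42-fold to 2.30-fold. By the size of its test statistic whd stood at rank 1943 of the 11399 genes, and 19.4% of them had a higher log2 fold change.

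The inner enzyme, CPT2 (FBgn0035383, 3L from 2981022 to 2983551), turns the carnitine ester back into acyl-CoA in the matrix. In the authors' deposited table CPT2 had a mean of 715 normalised counts and a log2 fold change of -0.11 (adjusted p = 0.160, SE 0.06). Its interval runs from 0.850 to 1.01 as a fold, so a change of the size seen in whd lies outside it. The intervals of whd (0.51 to 1.20 on the log2 scale) and CPT2 (-0.23 to 0.02) do not overlap, but the difference between the genes was not tested, since the table gives no covariance between genes of the same libraries.

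Acyl-CoA dehydrogenases open each round of chain shortening, and the 2 member genes of this family were both called. Arc42 (FBgn0038742, 3R from 19877737 to 19879309) belongs to the short-chain type. The authors' deposited table gave Arc42 a mean of 716 normalised counts and a log2 fold change of 0.36 (adjusted p = 0.00655, SE 0.12), which is 1.29-fold with an interval of 1.09-fold to 1.51-fold. Arc42 and CPT2 thus had nearly the same mean count, and the smallest log2 fold change that could be called was 0.27 for Arc42 and 0.15 for CPT2, given their SEs.

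Mcad (FBgn0035811, 3L from 7719350 to 7721472) encodes the medium-chain acyl-CoA dehydrogenase. It had the largest fold change of the members and by far the lowest mean count, with a mean of 12.8 normalised counts, a log2 fold change of 1.13 (adjusted p = 0.000497, SE 0.30) and an interval of 1.47-fold to 3.29-fold in the authors' deposited table. Its mean had a percentile of 37.6 among all genes in that table, against a percentile of 91.2 or higher for the other 6 members. In the annotation 1353 of the 1461 exonic bases of Mcad, or 92.6%, are also exon of CG7457, a protein-coding gene on the opposite strand, which leaves 108 bases of its own. CG7457 had a mean of 84.9 normalised counts and a log2 fold change of 0.15 (adjusted p = 0.326, SE 0.13) in the authors' deposited table. No source used here says whether reads were counted by strand, so reads of Mcad and CG7457 cannot be told apart, and both the level and the fold change of Mcad are uncertain for that reason. With genes under a mean of 100 left out, 2 of 6 members were called, against 58.6% of all genes kept.

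The other members share a smaller part of their exons, 11.1% at most. That member, whd, shares 353 of 3175 exonic bases with 2 genes on the opposite strand, CG11777 and asRNA:CR45134. Its mean of 1618 normalised counts stands against 16.9 for CG11777 and 2.01 for asRNA:CR45134 in the authors' deposited table. Mtpalpha shares 10 and Thiolase 7 bases with a gene on the other strand, and CPT2, Arc42 and yip2 share 0.

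**Figure D2:**
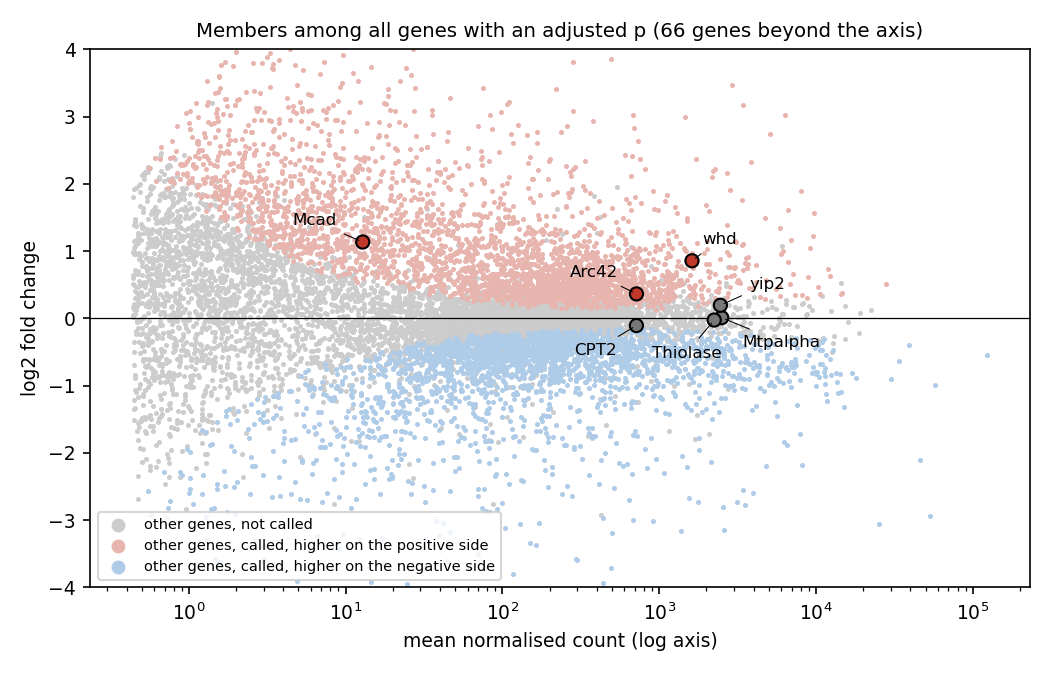
Mean normalised count (horizontal, log axis) against log2 fold change (vertical) for genes with an adjusted p in the authors' deposited table, with the 7 members outlined and named and 66 genes beyond the axis limits. Mcad sits at a mean of 12.8, and the other members lie between 715 and 2503.

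The trifunctional protein carries the hydratase, hydroxyacyl-CoA dehydrogenase and thiolase steps for long chains on alpha and beta subunits. Mtpalpha (FBgn0028479, 2L from 9573563 to 9576769), the alpha subunit, had a mean of 2503 normalised counts and a log2 fold change of 0.01 (adjusted p = 0.935, SE 0.09) in the authors' deposited table. The beta subunit, listed there as Thiolase (FBgn0025352, 2R from 23866648 to 23868603), had a mean of 2242 normalised counts and a log2 fold change of -0.03 (adjusted p = 0.792, SE 0.07) in the authors' deposited table. Both intervals are narrow, from 0.895 to 1.13 as a fold for Mtpalpha and from 0.893 to 1.08 for Thiolase. On the deposited scale, the values of these partner subunits lie within 1 SE of each other and of 0.

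The gene yip2 (FBgn0040064, 2L from 9915253 to 9917220) encodes an acetyl-CoA acyltransferase, a thiolase of the matrix. In the authors' deposited table yip2 had a mean of 2456 normalised counts and a log2 fold change of 0.19 (adjusted p = 0.127, SE 0.11), with an interval from 0.987 to 1.33 as a fold. For all 4 members that were not called, the interval lies within 1.5-fold in either direction. A miss of the threshold does not show that these transcripts were equal on both sides.

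Per kilobase of exonic sequence, the mean level over all libraries was highest for yip2, at 1765 normalised counts, followed by Thiolase at 1408 and Mtpalpha at 867. The levels of whd and Arc42 were close, 509.8 and 505.0 normalised counts per kilobase, with CPT2 at 304 and Mcad at 8.79. The deposited means carry no error, so which neighbours in this order differ beyond their spread is unknown. The 3 genes with the highest levels per kilobase, which act in hydration, the second dehydrogenation and thiolysis, are all among those not called.

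Precision also differed among the members. The median SE in the authors' deposited table was 0.13 (log2) over the 1485 genes with a mean of 500 to 5000. CPT2 had a smaller SE than 97.6% of these genes and Mtpalpha than 85.8%, with Thiolase between them. The SE of whd, in contrast, was larger than that of 79.1% of them. Thus whd was called with a less precise estimate than most genes of its level, and CPT2 and the trifunctional subunits were not called with some of the most precise ones.

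**Figure D3:**
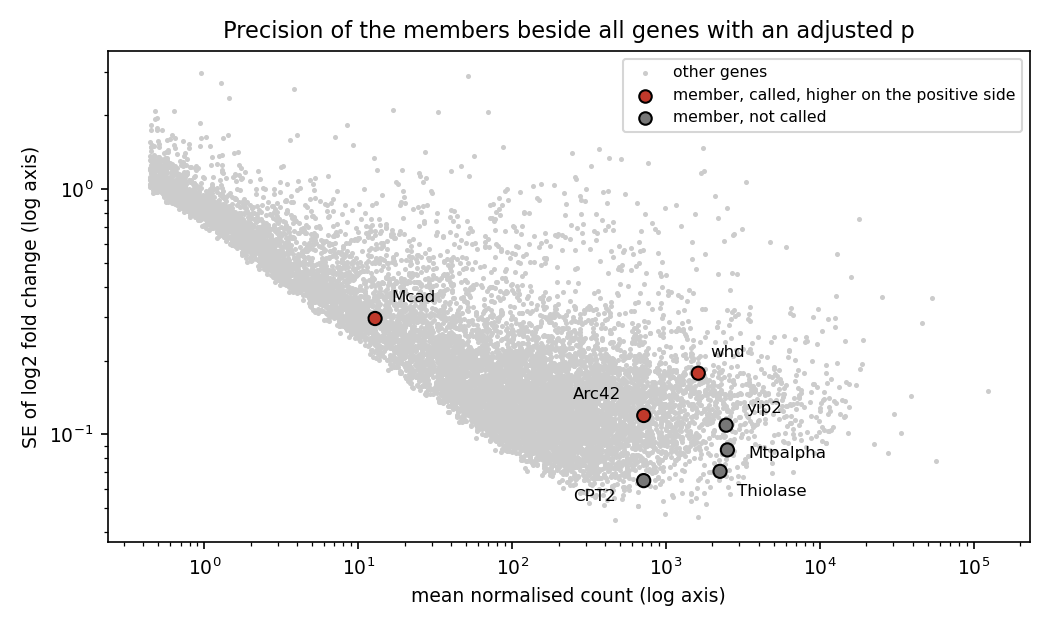
Mean normalised count (horizontal, log axis) against the SE of the log2 fold change (vertical, log axis) in the authors' deposited table, with grey points for other genes with an adjusted p. CPT2 and Thiolase lie at the lower edge of the cloud, and whd lies above the median SE of 0.13 for genes with a mean of 500 to 5000.

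None of the remaining genes of carnitine transfer had a positive call, but only 3 of them had an adjusted p. The shares over all genes, 27.0% positive and 22.0% negative, stand beside this and each list count below. No list was tested against them. The authors' deposited table has 4 of them, with 2 negative calls and 0 positive ones, and CG5265, with a mean of 0.0649 normalised counts, had no adjusted p-value. The called ones were colt, the carrier that exchanges acylcarnitine for carnitine across the inner membrane, at a log2 fold change of -0.46 (adjusted p = 0.000729, SE 0.12), and CROT at -0.88 (adjusted p = 1.05e-07, SE 0.15), both from the authors' deposited table. So of the 3 proteins in the path of a long-chain carnitine ester, the transferase whd was called on the positive side, the carrier colt on the negative side, and the transferase CPT2 was not called. Relative to a linear fit of the deposited log2 fold changes on transcript length and mean over 11364 genes, an alternative with no test of its own, colt stood at -0.11, within 1 SE of 0, and CROT at -0.88.

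Calls among the other acyl-CoA dehydrogenase genes were on the opposite side to those of Arc42 and Mcad, a difference that was not tested. These 6 genes gave 4 negative calls and 0 positive ones, with a median log2 fold change of -0.46. The list follows the enzyme family, and which of its genes act on fatty acids was not examined. In the authors' deposited table the very-long-chain enzyme gene CG7461, Acadvl in RefSeq, had a mean of 2915 normalised counts and a log2 fold change of -0.34 (adjusted p = 6.91e-07, SE 0.06). Egm (enigma), the fly ACAD9, was at -0.57 (adjusted p = 3.08e-11, SE 0.08) and CG6638 at -0.94 (adjusted p = 7.24e-31, SE 0.08) in the authors' deposited table. RefSeq gives CG4860 the synonym ACADS, the name of the mammalian short-chain enzyme. CG4860 stood at -1.08 (adjusted p = 6.17e-07, SE 0.20) in the authors' deposited table, whereas Arc42, also short-chain, was at 0.36. Relative to the fit on length and mean, CG7461 stood at -0.06, while CG4860, CG6638 and Egm stood at -0.99, -0.79 and -0.59 and Arc42 at 0.59.

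Electrons from these dehydrogenases pass to the electron transfer flavoprotein. Both of its subunit genes were called on the negative side in the authors' deposited table, wal (the alpha subunit) at a log2 fold change of -0.78 (adjusted p = 1.02e-06, SE 0.15) and CG7834 (Etfb, the beta subunit) at -1.18 (adjusted p = 5.72e-20, SE 0.12). Etf-QO, the oxidoreductase that hands the electrons on to ubiquinone, was at 0.09 (adjusted p = 0.305, SE 0.08) in the authors' deposited table and was not called. CG7834 and wal are abundant, with means of 2642 and 2182 normalised counts in that table. Relative to the fit on length and mean, CG7834 stood at -0.75 and wal at -0.45.

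**Figure D4:**
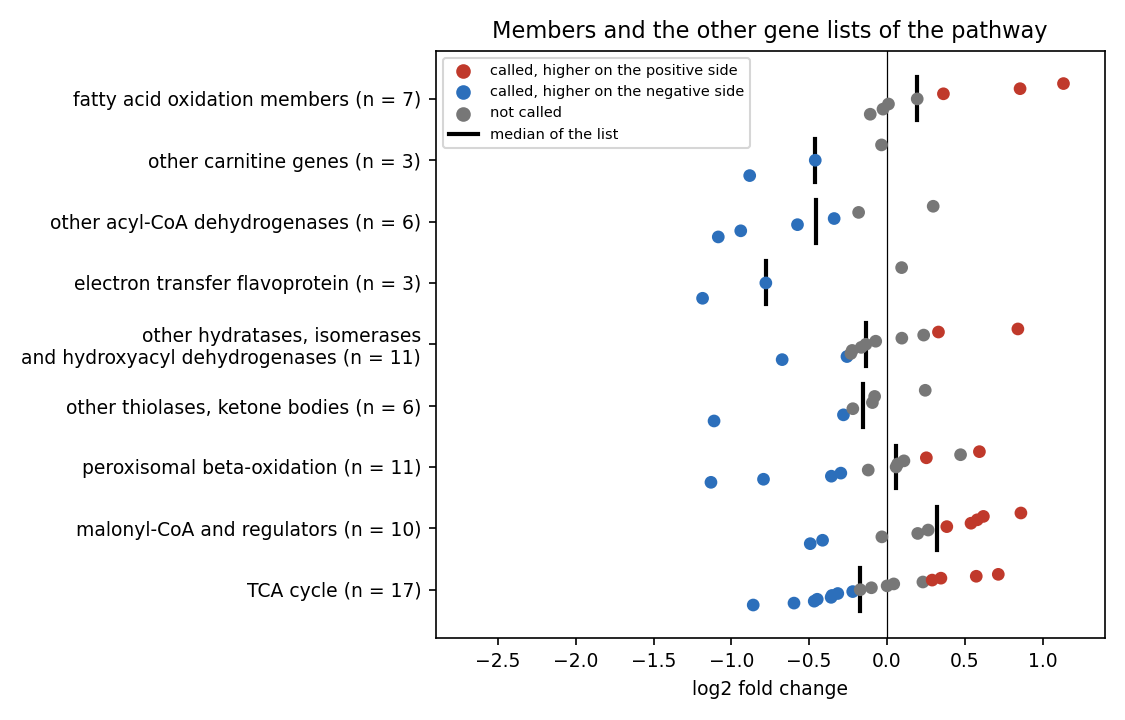
Deposited log2 fold changes (horizontal axis) for the 7 members (top) and for 8 other lists, each point 1 gene with an adjusted p, red where called on the positive side, blue on the negative side and grey where not called, with a black bar at the list median. The called members lie to the right of 0, and the called genes of the carnitine, acyl-CoA dehydrogenase, electron transfer flavoprotein and thiolase lists lie to the left.

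The other hydratase, isomerase and hydroxyacyl-CoA dehydrogenase genes were mixed. These 11 genes gave 2 positive and 2 negative calls. The authors' deposited table gave Dci, an enoyl-CoA isomerase gene, a log2 fold change of 0.84 (adjusted p = 2.15e-13, SE 0.11) and CG5611 one of 0.33 (adjusted p = 0.0244, SE 0.13). On the other side, scu, a mitochondrial hydroxysteroid and hydroxyacyl-CoA dehydrogenase gene (the fly HSD17B10), stood at -0.67 (adjusted p = 7.89e-07, SE 0.13) and Echs1, the short-chain enoyl-CoA hydratase gene, at -0.26 (adjusted p = 0.0257, SE 0.10) in the authors' deposited table. The side of Echs1 rests on the deposited scale, since relative to the fit on length and mean it stood at 0.10, with scu at -0.25 and Dci at 0.97.

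Among 6 other thiolase and ketone body genes, 2 were called, both on the negative side. Hmgs, the hydroxymethylglutaryl-CoA synthase gene, stood at a log2 fold change of -1.11 (adjusted p = 9.72e-16, SE 0.13) in the authors' deposited table. Fly Hmgs is best known for the mevalonate pathway, so it is not a marker of ketone production alone. SCOT, which serves the use of ketone bodies and was picked out after its value was seen, was at 0.25 (adjusted p = 0.0523, SE 0.11) in the authors' deposited table and was not called.

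In the peroxisomal list, which shortens chains by a separate set of enzymes, 11 genes gave 2 positive and 4 negative calls. The acyl-CoA oxidase genes Acox57D-d and Acox57D-p were called negative in the authors' deposited table, the first at a log2 fold change of -1.13 (adjusted p = 1.65e-12, SE 0.15) and the second at -0.79 (adjusted p = 4.59e-16, SE 0.09). Mfe2, the peroxisomal multifunctional enzyme gene, stood at -0.30 (adjusted p = 0.000197, SE 0.07) in the authors' deposited table, and at -0.04 relative to the fit on length and mean.

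The 10 genes that control malonyl-CoA, lipolysis or mitochondrial transcription gave 5 positive and 2 negative calls. Malonyl-CoA, made by acetyl-CoA carboxylase, inhibits CPT1 in mammals, and its gene ACC was called on the same side as whd, at a log2 fold change of 0.62 (adjusted p = 0.00521, SE 0.20) in the authors' deposited table. The nuclear receptor gene ERR stood at 0.54 (adjusted p = 1.56e-05, SE 0.12) in the authors' deposited table, next to foxo at 0.58 (SE 0.09) and the lipase genes bmm at 0.86 (SE 0.20) and Hsl at 0.38 (SE 0.11). The negative calls in the authors' deposited table were srl, the fly PGC-1 coactivator gene, at -0.49 (adjusted p = 0.0215, SE 0.19), and Lsd-1, a perilipin gene of the lipid droplet, at -0.41 (adjusted p = 0.0494, SE 0.18). ACC, srl and Lsd-1 were chosen for mention after their values were seen. Relative to the fit on length and mean, Lsd-1 stood at -0.11, srl at -0.71 and ACC at 0.72.

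Acetyl-CoA from oxidation enters the tricarboxylic acid cycle, and 17 cycle genes with an adjusted p gave 4 positive and 8 negative calls. Mdh2, malate dehydrogenase, stood at a log2 fold change of -0.86 (adjusted p = 2.95e-14, SE 0.11) and Fum1, fumarase, at -0.60 (adjusted p = 6.44e-07, SE 0.11) in the authors' deposited table. Idh3a, an isocitrate dehydrogenase subunit gene, stood at 0.57 (adjusted p = 4.66e-06, SE 0.12) and CG5214, which has alpha-KGDHC among its RefSeq synonyms, at -0.45 (adjusted p = 1.22e-07, SE 0.08) in that deposited table. Nc73EF, Ogdh in RefSeq, stood at 0.72 (adjusted p = 3.19e-05, SE 0.16) in the authors' deposited table, and was picked out after its value was seen. CG5214 and Nc73EF were thus called on opposite sides, so the value of CG5214 does not stand for the whole complex. Relative to the fit on length and mean the negative values were smaller, -0.47 for Mdh2, -0.37 for Fum1 and -0.29 for CG5214.

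As for the tissue, the fat body genes apolpp, FASN1 and the 3 yolk protein genes had means of 18112 to 53598 normalised counts in the authors' deposited table, while the larval genes Lsp2 and Fbp1 were at 8.37 and 3.38. Transcripts of other tissues were present too, with the oenocyte gene Cyp4g1 at 123338 normalised counts, the gut gene alphaTry at 18683 and the tubule gene Uro at 2173 in that deposited table. Muscle is rich in mitochondria, and 15 muscle markers gave 8 positive calls, the side of the called members, and 1 negative call, with a median log2 fold change of 0.91. The summed mean of these 15 genes was 7559 normalised counts, or 0.160% of the sum over all genes, and 1 of them, fln, had a mean under 1. The 12 fat body markers themselves gave 3 positive and 5 negative calls, with log2 fold changes from -3.05 for Yp1 to 3.27 for Fbp2 in the authors' deposited table. The 8 oenocyte markers gave 1 positive and 3 negative calls and ran from -6.26 to 0.51. Among 6 gut markers there were 1 positive and 2 negative calls, from -6.29 to 1.56, and among 5 tubule markers 3 positive calls and 0 negative. There were 4 positive calls among 7 hemocyte markers and 5 among 7 neuron markers, with 0 negative calls in each list. The 11 ovary and germline markers with an adjusted p gave 0 positive and 7 negative calls. Cp36, also of that list, had a log2 fold change of 2.36 (SE 1.75) but no p-value. The part of these tissues in the values of whd, Arc42 and Mcad was not tested, and levels by group are unknown.

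Transcript length is another measured property that went with the fold changes. With the better-expressed genes (mean of 50.0 or more) cut by length into 5 equal bins, bin medians of the deposited log2 fold change ran from -0.32 for the shortest to 0.29 for the longest. By this division Arc42, yip2 and Thiolase, with 1391 to 1593 bases, lie in the bin that runs from 1195 to 1784 bases, whose median was -0.16. whd and Mtpalpha, of 2907 and 2886 bases, lie in the bin with a median of 0.07. Relative to the fit on length and mean, whd stood 0.14 above its deposited log2 fold change, and the log2 differences from the fit were 0.87 for Mcad, 0.59 for Arc42, 0.57 for yip2, 0.31 for Thiolase, 0.21 for Mtpalpha and -0.01 for CPT2. The part of length in any member's value was not tested.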

How the data were processed

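The submitters' processing notes list DESeq2, Picard, SAMtools, Bowtie2, cutadapt, Trim Galore and FastQC, and the build dm6. Unstated, as not given in the sources used here, stay versions, read counter, strand setting, annotation and model. The authors deposited 1 table, whose mean is a normalised count averaged over libraries (a signal with no error). Per the file headers, fold change and SE are on the log2 scale, the deposited test statistic is a score, and a p-value and adjusted p-value follow. Checked on the values, the statistic is fold change over SE and the adjusted p is Benjamini-Hochberg over 11399 genes. The p-value was empty for 40 genes and the adjusted p for a further 1795.

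The design written for counts or values per library could not be used, so the authors' calls at an adjusted p under 0.05 stand as the test. Intervals are 95% normal ones from the deposited SE. Depth per library is unknown. Python 3.11.15, pandas 2.3.3 and scipy 1.17.1 were used. Names were matched through RefSeq (release 6), and exons, transcript lengths (13189 genes) and overlaps came from the BDGP6 annotation of Ensembl. The recomputed adjustments, the centred test and the length fit were tested on simulated data. Named genes are all members and, from each other list, up to 4 called genes with the smallest adjusted p, some of which are not reported here. A gene outside this rule is marked, or is given only as a partner, overlap or tissue marker. Members and lists were chosen with earlier results of these data known.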

Additional observations from a re-analysis of the deposited data

How the results depend on the processing

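The members' 3 positive and 0 negative calls were the same with an adjusted p under 0.01 or under 0.1, with adjustment over every gene with a p-value, above a mean of 10 and with fold changes centred on the median of well-expressed genes, -0.01. With genes under a mean of 100 left out, the positive count was 2, since Mcad was not among the genes tested. With Bonferroni adjustment it was 1, whd (adjusted p = 0.0166), because Arc42 and Mcad no longer passed. No member changed sign while called. Relative to the fit on transcript length and mean, 5 members lay at least 1 SE from their deposited log2 fold change. These were CPT2, Arc42, Mtpalpha, Thiolase and yip2. With an adjusted p under 0.01, the hydratase and hydroxyacyl-CoA dehydrogenase list had 1 call on each side, the thiolase and ketone body list had 1 on the negative side, and the malonyl-CoA and regulator list had 0 on the negative side. At that same threshold the tricarboxylic acid cycle list had 3 positive and 6 negative calls. With an adjusted p under 0.1, the thiolase and ketone body list had 1 positive call, SCOT, and 3 negative calls. The peroxisomal list then had 3 positive calls. Centred fold changes gave the thiolase and ketone body list 1 positive call, again SCOT, and the regulator list 1 negative call. Relative to the fit on transcript length and mean, applied to the named list genes after the data were seen, Echs1 alone of those turned, to 0.10. No paired analysis was possible because the table holds no value per library, and for the same reason no replicate could be left out and no other normalisation tried. The unknown direction of the comparison and the missing levels by group limit every result.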
